A study of Homo sapiens with 12 samples.

Results

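Tissue factor and plasminogen activation genes were described in 2 human endometrial cell lines cultured with the small molecule AG-205 or its solvent. The set held 8 of the 58735 genes in the count table: F3, TFPI, TFPI2, THBD, PLAT, PLAU, PLAUR and SERPINE2, which were found by their listed symbols and the matching Ensembl gene identifiers. F3 and TFPI2 were selected because their log2 fold changes with AG-205 differed between the cell lines, so their values are given below as a description with no test. The 6 other genes were listed for their roles, but with earlier results of these data known.

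HEC-1A is an epithelial-like line from an endometrial adenocarcinoma, and T-HESC is a line of fibroblast-like endometrial stromal cells immortalised with telomerase. Both lines received DMSO or AG-205 at 15 µM, and RNA was taken after 32 h, giving the 4 groups HEC-1A DMSO, HEC-1A AG-205, T-HESC DMSO and T-HESC AG-205 with 3 sequencing libraries each. AG-205 is sold as a ligand and inhibitor of PGRMC1, a membrane protein related to cytochrome b5, and the study asked what the compound does to the transcriptome of each line. By RT-qPCR, AG-205 still raised 3 selected sterol-related genes when PGRMC1, or all 4 proteins of its family, were lowered by small interfering RNA. The study concluded that AG-205 is not specific for PGRMC1. Whether PGRMC1 has a part in the responses below was not tested. Each cell type was represented by 1 line, so a difference between lines and a difference between epithelial and stromal cells cannot be told apart.

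Blood coagulation starts when tissue factor, the membrane protein encoded by F3, binds factor VIIa. TFPI (tissue factor pathway inhibitor) blocks that complex together with factor Xa, and thrombomodulin (THBD) turns thrombin into an activator of protein C, which restrains coagulation. TFPI2, in spite of its name, is a Kunitz-type inhibitor that acts mainly on plasmin and related proteases in the matrix. Fibrin and matrix are broken down by plasmin, which is cut from plasminogen by the tissue-type activator PLAT and by urokinase (PLAU). Urokinase is held on the cell surface by its receptor PLAUR, and SERPINE2 (protease nexin 1) inhibits thrombin, urokinase and plasmin. In the endometrium, stromal tissue factor is known for its rise during decidualization, and plasminogen activation for its part in menstrual breakdown and implantation.

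Total counts ranged from 7168542 to 15178276 per library, and the smallest was HEC-1A AG-205 replicate 3. The HEC-1A libraries separated by treatment on their first principal component, which carried 51.6% of the variance. Of the T-HESC libraries, AG-205 replicate 1 stood apart on the first component with a score of 89.4, against -37.7 to 2.85 for the 5 others, and T-HESC results are therefore also given without it. Libraries of a group varied more in T-HESC, with a biological coefficient of variation of 33.6%, than in HEC-1A, with 10.1%. All 8 epithelial markers checked reached 1 CPM in every HEC-1A library, and all 8 stromal markers did so in every T-HESC library. T-HESC was not free of epithelial transcripts: 5 of the 8 epithelial markers reached 1 CPM in every T-HESC library. With DMSO, KRT19 was at 106 CPM in T-HESC and 100.1 CPM in HEC-1A, KRT18 at 154 and 356 CPM, and KRT8 at 32.6 and 288.5 CPM. CDH1, the epithelial cadherin, held at most 3 counts in any T-HESC library. Of the 8 endothelial markers, PECAM1, CDH5, KDR and EMCN had at most 3 counts in every library. In T-HESC, TEK, a receptor also used as an endothelial marker, reached 37.6 to 89.3 CPM, TIE1 0.456 to 1.58 CPM and VWF 0.1995 to 1.05 CPM. The 8 leukocyte markers summed to at most 4.66 CPM in any library. Levels are given in CPM, counts relative to the library total after scaling by TMM factors over all 12 libraries.

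The 250 bases before the RefSeq transcription start (GRCh38.p14) are shown for the genes whose values carry the description: F3 and TFPI2, which moved in opposite directions in both lines, and the receptor and its urokinase ligand, which rose together in HEC-1A. Capitals mark matches to the AP-1 letters TGANTCA, searched on both strands.
F3 (chr1:94541760-94542009, minus strand): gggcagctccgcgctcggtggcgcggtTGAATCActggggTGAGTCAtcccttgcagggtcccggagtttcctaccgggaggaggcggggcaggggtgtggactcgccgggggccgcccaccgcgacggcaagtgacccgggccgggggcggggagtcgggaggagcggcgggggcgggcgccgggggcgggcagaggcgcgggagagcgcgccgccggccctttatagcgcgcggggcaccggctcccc
TFPI2 (chr7:93890754-93891003, minus strand): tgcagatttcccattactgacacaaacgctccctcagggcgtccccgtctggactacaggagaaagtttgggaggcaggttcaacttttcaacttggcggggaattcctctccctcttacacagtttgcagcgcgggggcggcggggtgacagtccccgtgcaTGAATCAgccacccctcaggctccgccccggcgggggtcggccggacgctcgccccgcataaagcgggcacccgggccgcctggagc
PLAUR (chr19:43670170-43670419, minus strand): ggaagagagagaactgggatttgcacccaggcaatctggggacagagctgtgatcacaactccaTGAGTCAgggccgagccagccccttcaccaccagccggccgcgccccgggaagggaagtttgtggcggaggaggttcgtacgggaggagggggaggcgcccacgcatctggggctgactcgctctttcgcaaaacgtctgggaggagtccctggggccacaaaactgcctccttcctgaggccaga
PLAU (chr10:73910882-73911131, plus strand): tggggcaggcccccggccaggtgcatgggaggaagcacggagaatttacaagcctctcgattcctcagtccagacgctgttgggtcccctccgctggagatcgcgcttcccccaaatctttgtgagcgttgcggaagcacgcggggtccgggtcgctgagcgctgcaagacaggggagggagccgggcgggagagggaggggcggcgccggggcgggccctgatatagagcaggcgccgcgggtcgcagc

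The letters were searched in 8 windows of 6 genes, and windows of PLAT and THBD were not analysed here. AP-1 letters were found in 3 of the 8 windows. F3 held 2 matches, at 223 and 210 bases before the start, TFPI2 held 1 at 87 bases and PLAUR held 1 at 186 bases. Over all 35116 RefSeq windows of the same length, 6.57% held the AP-1 letters and 0.402% held them at least 2 times. The Sp1 letters GGGCGG occurred 4 times in the F3 window, 2 times in that of TFPI2 and 3 times in the PLAU window shown, and in 42.6% of all windows. The EGR1 letters GCGGGGGCG occurred once in F3 and once in TFPI2, each overlapping an Sp1 match, and in 4.72% of all windows. A sterol element (TCACNCCAC) was matched in none of the 8 windows and in 0.883% of all windows, and TATAAA was matched in F3 at 28 bases, on the opposite strand, and in 10.7% of all windows. The looser NF-kB type pattern was matched in 54.4% of all windows. These are matches of letters, and no binding was measured. The F3 window was rich in G and C, at 78%, against a median of 58% over all windows, 64.4% for TFPI2, 63.2% for PLAUR and 68.8% for the PLAU window shown.

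The first comparison asked how the untreated lines differ. With DMSO alone, T-HESC held more transcript of TFPI, PLAT, PLAUR and SERPINE2 than HEC-1A, and less of PLAU and THBD. Of the 6 genes other than F3 and TFPI2, 4 passed as higher in T-HESC and 2 as lower. Calls used the edgeR quasi-likelihood test, with a Benjamini-Hochberg adjusted p below 0.05 and a log2 fold change beyond 1. SERPINE2 and THBD are among these calls and in the median below, although each had enough counts for a test in only 1 of the lines. Their calls therefore say little beyond presence in that line. Of all 14789 genes tested, 22.3% were called higher in T-HESC and 22.3% were called lower, so calls between these lines were frequent. The median log2 difference of the 6 genes was 4.10, against -0.02 over all genes. In a bulk library, fewer cells that express a gene and less of its RNA per cell cannot be told apart.

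SERPINE2 (ENSG00000135919, chromosome 2, 223975045 to 224039318, minus strand, GENCODE 44 on GRCh38) had 5, 6 and 5 counts in the HEC-1A DMSO libraries, and 394, 329 and 283 CPM in T-HESC DMSO. Its log2 difference was 9.51 ± 0.22 (SE, edgeR), a size that rests on those few HEC-1A counts. The gene entered this comparison only through its T-HESC counts. PLAUR (ENSG00000011422, chromosome 19, 43646095 to 43670547, minus strand) was at 0.985, 0.875 and 1.52 CPM in HEC-1A DMSO and at 130, 155 and 183 CPM in T-HESC DMSO. The receptor transcript was thus 137-fold higher in the stromal line (log2 difference 7.10 ± 0.22, adjusted p 2.41e-08, edgeR). PLAT (ENSG00000104368, chromosome 8, 42174718 to 42207709, minus strand) was at 1.72, 1.35 and 1.17 CPM in HEC-1A DMSO and at 337, 228 and 151 CPM in T-HESC DMSO. The tissue-type activator was 166-fold higher in T-HESC (log2 difference 7.37 ± 0.37, adjusted p 3.49e-07, edgeR), with a wide spread among its T-HESC libraries.

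Urokinase had the opposite distribution. PLAU (ENSG00000122861, chromosome 10, 73909177 to 73917496, plus strand) was at 58.9, 55.7 and 61.5 CPM in HEC-1A DMSO and at 18.8, 23.3 and 7.68 CPM in T-HESC DMSO, 3.54-fold lower in the stromal line (log2 difference -1.82 ± 0.32, adjusted p 0.000785, edgeR). The long noncoding gene C10orf55 overlaps 31% of the PLAU exon length on the opposite strand and held 0 to 11 counts in any library. THBD (ENSG00000178726, chromosome 20, 23045633 to 23049672, minus strand) was at 5.01, 5.09 and 4.75 CPM in HEC-1A DMSO and had 3, 2 and 0 counts in T-HESC DMSO, too few for a fold. It entered this comparison only through its HEC-1A counts. TFPI (ENSG00000003436, chromosome 2, 187464230 to 187565760, minus strand) was the gene of the 6 that differed least, at 45, 46.8 and 52.7 CPM in HEC-1A DMSO and 105, 118 and 91.9 CPM in T-HESC DMSO. It was 2.16-fold higher in T-HESC (log2 difference 1.11 ± 0.12, adjusted p 4.17e-05, edgeR). Its overlap with CALCRL-AS1 on the opposite strand covers 1.01% of its exon length, and CALCRL-AS1 held at most 5 counts in any library. The 6 calls held when each of the 6 DMSO libraries was left out in turn.

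F3 (ENSG00000117525, chromosome 1, 94529173 to 94541759, minus strand) and TFPI2 (ENSG00000105825, chromosome 7, 93885396 to 93890753, minus strand) were also higher in T-HESC DMSO than in HEC-1A DMSO. F3 was at 33.8, 30.7 and 34.1 CPM in HEC-1A DMSO and 168, 190.5 and 210 CPM in T-HESC DMSO. TFPI2 was at 29.1, 27.6 and 30.8 CPM in HEC-1A DMSO and 474, 540.2 and 311 CPM in T-HESC DMSO. Neither gene had overlapping levels between the lines, and the share of all genes without such overlap is not given here. Their log2 differences were 2.52 ± 0.11 and 3.91 ± 0.21 (SE), not tested because these libraries entered the values on which the genes were selected.

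**Figure D1:**
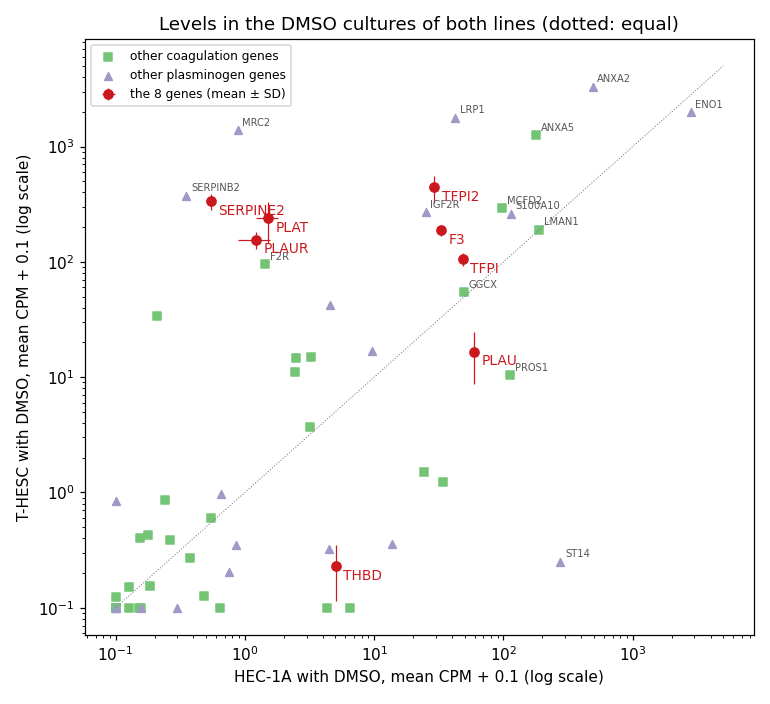
Mean level of each gene in the DMSO libraries of HEC-1A (x axis) and T-HESC (y axis), as CPM + 0.1 on log scales, with n = 3 libraries per line. Red circles with SD bars are the 8 genes, squares and triangles are other coagulation and plasminogen genes, and the dotted line marks equal levels. PLAT, PLAUR and SERPINE2 lie far above the line, near MRC2 and SERPINB2, while PLAU and THBD lie below it.

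To compare one gene with another, counts were divided by the exon length of the gene (all exons of GENCODE 44 merged), which understates genes with many long alternative exons such as TFPI. On this scale of CPM per kb, HEC-1A DMSO was led by PLAU at 19.9 ± 0.99 (SD, n = 3), followed by TFPI2 at 11.9 ± 0.66 and F3 at 11.4 ± 0.65, whose libraries overlapped. TFPI at 4.11 ± 0.34 and THBD at 1.23 ± 0.04 came next. PLAUR at 0.253 ± 0.078 and PLAT at 0.182 ± 0.037 overlapped, and SERPINE2 was lowest at 0.0497 ± 0.0037. In T-HESC DMSO the order was led by TFPI2 at 181 ± 48.2 CPM per kb and F3 at 65.7 ± 7.20. SERPINE2 at 37.4 ± 6.24, PLAUR at 34.9 ± 6.01 and PLAT at 30.7 ± 12.0 overlapped with one another, TFPI at 8.97 ± 1.12 and PLAU at 5.62 ± 2.72 overlapped in 1 library, and THBD was lowest. The untreated epithelial line thus held urokinase transcript with little receptor transcript. The untreated stromal line held both, with more receptor than urokinase transcript.

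The second comparison asked what AG-205 did in HEC-1A. AG-205 raised the transcripts of both plasminogen activators, of the urokinase receptor and of thrombomodulin, and TFPI did not pass the test. Of the 6 genes other than F3 and TFPI2, 4 were called higher and 1 was not, and SERPINE2 had too few counts to be tested. The genes were listed with earlier results of these data known, so the number called is a description. Over all 14122 genes tested in HEC-1A, 2.58% were called higher with AG-205 and 0.205% lower. In each of the 4 called genes all AG-205 libraries lay above all DMSO libraries, which was also so in 16.4% of the genes tested. The median log2 fold change of the 5 tested genes was 1.20, against 0.01 over all genes.

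PLAT had the largest change of the 7 members with enough counts. It rose from 1.72, 1.35 and 1.17 CPM with DMSO to 9.33, 8.85 and 7.89 CPM with AG-205, a 6.13-fold increase (log2 fold change 2.62 ± 0.20, adjusted p 3.74e-06, edgeR). These levels rest on 13 to 21 counts with DMSO and 66 to 137 with AG-205. PLAU rose from 58.9, 55.7 and 61.5 CPM to 131, 139 and 134.5 CPM, a 2.30-fold increase on a transcript that was already abundant (log2 fold change 1.20 ± 0.09, adjusted p 2.50e-06, edgeR). Its receptor PLAUR rose from 0.985, 0.875 and 1.52 CPM to 3.34, 4.13 and 3.71 CPM, a 3.31-fold increase (log2 fold change 1.73 ± 0.27, adjusted p 0.00128, edgeR). PLAUR thus stayed a low transcript in HEC-1A, with 31 to 56 counts per AG-205 library. THBD rose from 5.01, 5.09 and 4.75 CPM to 11.4, 13.1 and 8.37 CPM, a 2.24-fold increase (log2 fold change 1.17 ± 0.18, adjusted p 0.00115, edgeR), and its lowest AG-205 value was in the smallest library.

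TFPI was at 45, 46.8 and 52.7 CPM with DMSO and at 43.9, 47.2 and 55.4 CPM with AG-205 in HEC-1A, with overlapping groups (log2 fold change 0.02 ± 0.11, adjusted p 0.945, edgeR). SERPINE2 had 3, 5 and 4 counts with AG-205, close to its 5, 6 and 5 counts with DMSO. F3 was at 39.2, 43 and 44.5 CPM with AG-205, each above the DMSO libraries, and TFPI2 was at 20.3, 24.1 and 27.4 CPM, each below them. These changes were small, at log2 0.36 ± 0.10 for F3 and -0.29 ± 0.12 for TFPI2 (SE), and are given without a test. All AG-205 libraries lay above all DMSO libraries in 16.4% of the genes tested, and the share for the opposite direction is not given here.

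The 4 calls in HEC-1A held when each of the 6 libraries was left out in turn. In a fit of all 12 libraries, where both lines share an estimate of the spread, PLAT and PLAUR remained called, and PLAU and THBD did not. Their log2 fold changes in that fit were 1.20 ± 0.37 (adjusted p 0.26, edgeR) and 1.15 ± 0.31 (adjusted p 0.17, edgeR), close to those above, with larger SE. The summed level of the 8 epithelial markers was 1778 to 1993 CPM with DMSO and 2574 to 2666 CPM with AG-205 in HEC-1A, and its part in these results was not tested. The sum was carried mainly by CLDN4 (mean 301 and 701 CPM), KRT19 (100.1 and 213 CPM) and KRT8 (288.5 and 401 CPM), whereas EPCAM was at 243 and 226 CPM and CDH1 at 82.1 and 86 CPM. In HEC-1A all 8 endothelial markers were at most at 3 counts with DMSO, and all but CLDN5 with AG-205.

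**Figure D2:**
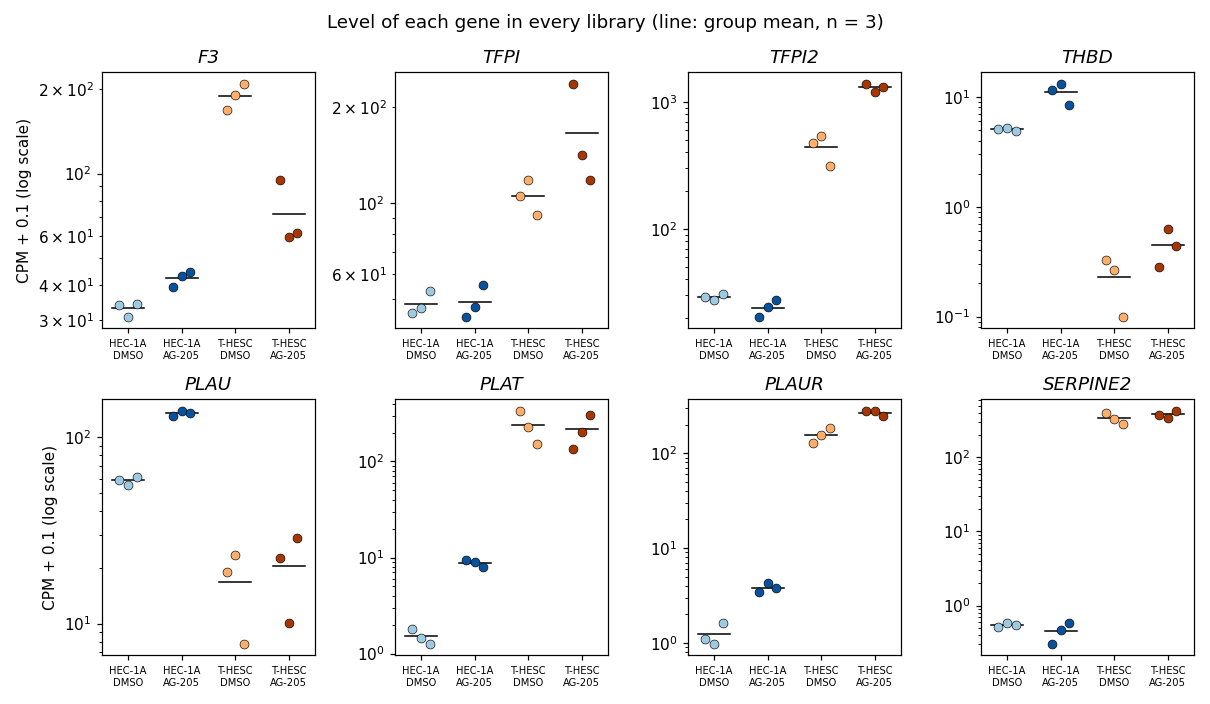
Level of each of the 8 genes in all 12 libraries, as CPM + 0.1 on a log scale that differs between panels. Each point is 1 library, and each line is the mean of a group of 3. In HEC-1A the AG-205 points of PLAT, PLAU, PLAUR and THBD lie above the DMSO points, and in T-HESC those of F3 lie below and those of TFPI2 and PLAUR above.

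The third comparison asked what AG-205 did in T-HESC. Of the genes selected on their response, F3 was lower and TFPI2 higher with AG-205. None of the 6 other genes was called: 5 were tested with edgeR, 1 of them (PLAUR) had an unadjusted p below 0.05, DESeq2 called 0, and THBD had too few counts to be tested. Calls were rare in this line, at 0.0800% of the 13753 genes tested in either direction. The median log2 fold change of the 5 tested genes was 0.28, against 0.02 over all genes.

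F3 went from 168, 190.5 and 210 CPM with DMSO to 94.9, 59 and 61.2 CPM with AG-205. The groups did not overlap, and the share of all genes separated in this direction is not given here. The mean with AG-205 was 71.7 ± 20.1 CPM against 189.6 ± 20.8 CPM (SD, n = 3). F3 was 2.66-fold lower with AG-205 (log2 fold change -1.41 ± 0.27, SE). Tissue factor transcript nonetheless remained above its level in HEC-1A, where the highest AG-205 library was at 44.5 CPM. The highest of the T-HESC AG-205 values was in replicate 1, the library that stood apart, and without it the log2 fold change was -1.69.

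TFPI2 went from 474, 540.2 and 311 CPM with DMSO to 1394, 1193 and 1317 CPM with AG-205. The lowest AG-205 library was above the highest DMSO library by more than the whole range of the DMSO group. TFPI2 was 2.92-fold higher (log2 fold change 1.54 ± 0.29, SE), and 1.48 on the log2 scale without AG-205 replicate 1. TFPI2 shares 1.8% of its exon length with GNGT1 on the opposite strand, which held at most 1 count in any library.

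PLAUR was at 130, 155 and 183 CPM with DMSO and at 278, 281 and 245 CPM with AG-205 in T-HESC. The AG-205 libraries lay above all DMSO libraries, as in 6.22% of all genes tested, but the 1.71-fold difference did not pass (log2 fold change 0.77 ± 0.23, adjusted p 0.532, edgeR; 0.262 without AG-205 replicate 1). TFPI was at 105, 118 and 91.9 CPM with DMSO and at 237, 142 and 118 CPM with AG-205. Its groups overlapped narrowly, and its log2 fold change of 0.65 ± 0.31 (adjusted p 0.98, edgeR) was 0.27 without AG-205 replicate 1, which held the highest value. PLAT was at 337, 228 and 151 CPM with DMSO and at 136, 204 and 306 CPM with AG-205, so that both groups covered nearly the same range (log2 fold change -0.17 ± 0.38, adjusted p 0.993, edgeR).

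PLAU in T-HESC was at 18.8, 23.3 and 7.68 CPM with DMSO and at 22.4, 10 and 28.7 CPM with AG-205, again overlapping (log2 fold change 0.28 ± 0.50, adjusted p 0.993, edgeR). SERPINE2 was at 394, 329 and 283 CPM with DMSO and at 376, 340.5 and 424.5 CPM with AG-205 (log2 fold change 0.17 ± 0.23, adjusted p 0.993, edgeR). Without AG-205 replicate 1 these were 0.18 for PLAU and 0.16 for SERPINE2 on the log2 scale. The direction of PLAT and PLAU in this line depended on single libraries: PLAT was at 0.16 without DMSO replicate 1 and 0.07 without AG-205 replicate 1, and PLAU at -0.07 without DMSO replicate 3 and -0.05 without AG-205 replicate 3, on the log2 scale. THBD had 2, 7 and 4 counts with AG-205. The summed stromal markers were at 17159 to 27068 CPM with DMSO and 12831 to 20591 CPM with AG-205, and their part in these values was not tested. The lower sums were carried mainly by the collagens, such as COL1A1 (mean 8704 and 4138 CPM) and COL3A1 (1579 and 769 CPM). PDGFRB (384 and 293 CPM) and DCN (271 and 211 CPM) also had lower means. VIM was at 4180 and 5015 CPM, with its highest AG-205 library at 8072 CPM, THY1 at 180 and 172 CPM and LUM at 150 and 159 CPM.

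**Figure D3:**
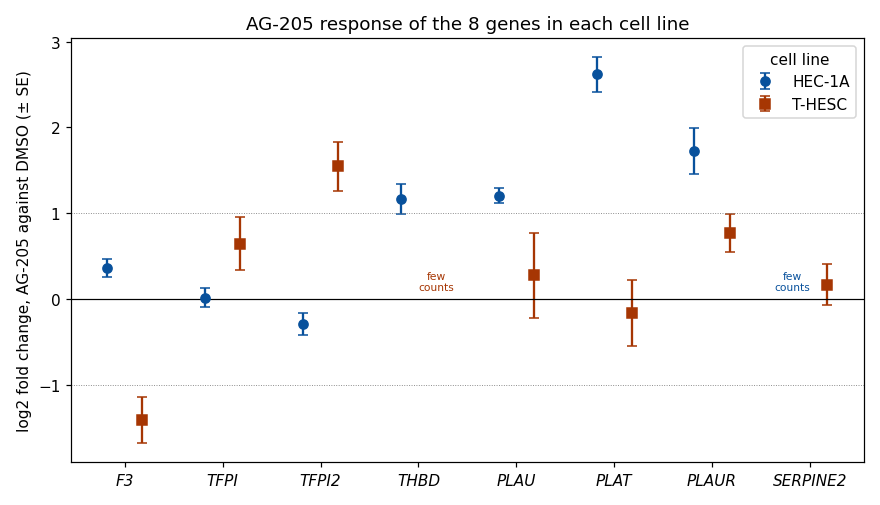
Log2 fold change of AG-205 against DMSO for the 8 genes in HEC-1A (blue circles) and T-HESC (brown squares), from edgeR fits of 6 libraries per line, with bars of ± 1 SE and dotted lines at the fold limit of 1. F3 lies at 0.36 in HEC-1A and -1.41 in T-HESC, TFPI2 at -0.29 and 1.54. THBD in T-HESC and SERPINE2 in HEC-1A had too few counts for a value.

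Whether the lines differed in their response was asked of each gene directly, as the T-HESC log2 fold change minus that of HEC-1A in a fit of all 12 libraries. The comparisons share libraries: the same DMSO libraries entered the baseline, the responses and this difference. Of the 6 genes other than F3 and TFPI2, 0 were called with edgeR and DESeq2 called 1 (PLAT). With edgeR, 2 (PLAT and PLAUR) had an unadjusted p below 0.05. Over all 16132 genes tested, 0.174% were called in either direction.

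PLAT came closest, with a response that was lower in T-HESC, a difference of -2.76 ± 0.49 on the log2 scale (adjusted p 0.0542, edgeR). This gene passed with DESeq2 (adjusted p 0.00016) and without the filter on low counts (adjusted p 6.76e-10). It also passed without T-HESC AG-205 replicate 1 (adjusted p 0.0253), without T-HESC AG-205 replicate 3 (adjusted p 0.0219) and without T-HESC DMSO replicate 3 (adjusted p 0.0445), all with edgeR. Over all alternatives run for PLAT the adjusted p ranged from 6.76e-10 to 0.456. PLAUR differed by -0.94 ± 0.30 (adjusted p 0.498) and PLAU by -0.91 ± 0.53 (adjusted p 0.9), both with edgeR. These rises in HEC-1A were therefore not shown to differ from the responses in T-HESC. TFPI differed by 0.63 ± 0.33 (adjusted p 0.844) and SERPINE2, with at most 6 counts in any HEC-1A library, by 0.60 ± 0.42 (adjusted p 0.955), both with edgeR. TFPI was at 0.28 without T-HESC AG-205 replicate 1, and SERPINE2 at 0.29 without HEC-1A AG-205 replicate 1. The value of THBD, 0.14 ± 0.54 (adjusted p 1, edgeR), rests on at most 7 counts per T-HESC library. F3 differed by -1.77 ± 0.27 and TFPI2 by 1.85 ± 0.29 (SE), the values for which they were selected. Without T-HESC AG-205 replicate 1 the differences were -2.02 for F3, 1.80 for TFPI2, -0.97 for PLAUR, -0.99 for PLAU, 0.61 for SERPINE2 and 0.42 for THBD.

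Ratios within a library do not depend on its depth or scaling, but their size rests on the merged exon lengths. These were 2886 bases for F3, 2444 for TFPI2 and 11714 for TFPI. Per exon length, F3 stood at 0.985, 0.942 and 0.935 of TFPI2 in HEC-1A DMSO and at 1.64, 1.51 and 1.38 in HEC-1A AG-205. In T-HESC DMSO the ratio was 0.301, 0.299 and 0.572, and in T-HESC AG-205 it was 0.0576, 0.0419 and 0.0393. F3 transcript was thus nearly level with TFPI2 in the untreated epithelial line, and TFPI2 exceeded F3 by 17.3 to 25.4 times in the treated stromal line. F3 to TFPI, the inhibitor of the tissue factor complex, was 2.62 to 3.05 in HEC-1A DMSO, 3.26 to 3.70 in HEC-1A AG-205, 6.49 to 9.28 in T-HESC DMSO and 1.63 to 2.11 in T-HESC AG-205. The AG-205 range lay above the DMSO range in HEC-1A and below it in T-HESC. As F3 is part of both ratios and was selected on its response, these are descriptions.

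Among the plasminogen genes, the merged exon lengths were 2949 bases for PLAU, 7770 for PLAT and 4457 for PLAUR. The size of the ratios rests on these lengths. PLAU stood at 90 to 139 times PLAT per exon length in HEC-1A DMSO and at 37 to 44.9 times in HEC-1A AG-205. Urokinase therefore remained the more abundant activator transcript in every HEC-1A library. In T-HESC the order was the reverse, with PLAU at 0.134 to 0.269 of PLAT with DMSO and 0.129 to 0.435 with AG-205, and these ranges overlapped. PLAU to its receptor was 61 to 96.2 in HEC-1A DMSO and 50.9 to 59.3 in HEC-1A AG-205, against 0.0634 to 0.227 and 0.0538 to 0.177 in T-HESC with DMSO and AG-205.

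**Figure D4:**
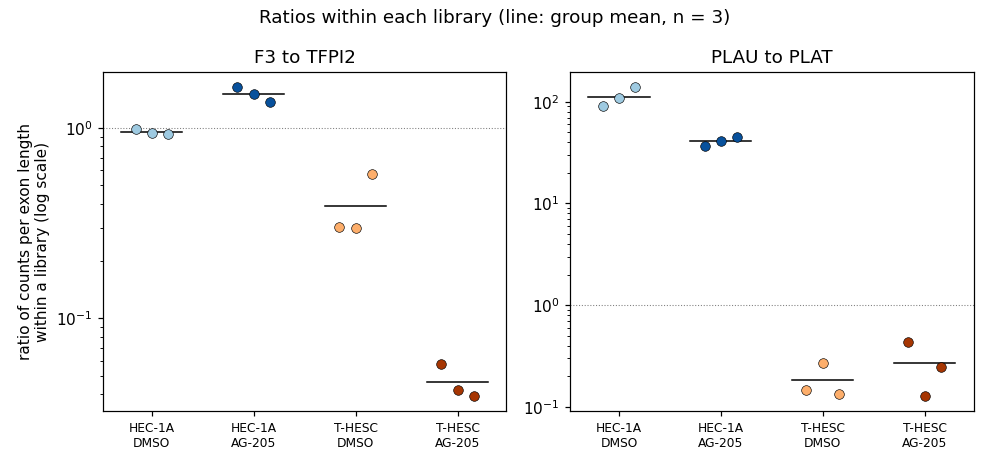
Ratio of F3 to TFPI2 (left) and of PLAU to PLAT (right) within each library, from counts per exon length, on log scales. Each point is 1 library, lines are means of 3 and the dotted line marks a ratio of 1. F3 to TFPI2 lies at 0.0393 to 0.0576 in T-HESC AG-205, and PLAU to PLAT at 37 or more in all HEC-1A libraries and at 0.435 or less in all T-HESC libraries.

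The other genes of coagulation were read from a list of 34. In the whole set of libraries 13 of them stayed under 10 counts in every library, among them F7, the plasma partner of tissue factor, with at most 1 count. With AG-205, 0 of 15 tested genes were called in HEC-1A (edgeR, 4 with an unadjusted p below 0.05, DESeq2 0) and 0 of 13 in T-HESC (edgeR, 0 with an unadjusted p below 0.05, DESeq2 0). Their median log2 fold changes were -0.12 and 0.11, against 0.01 and 0.02 over all genes. Of the difference between lines, 0 of 16 tested genes were called (edgeR, 1 with an unadjusted p below 0.05, DESeq2 0). In HEC-1A, FGB, the fibrinogen beta chain, passed the adjusted p without reaching the fold limit, from 6.36 to 3.56 CPM (log2 fold change -0.86, adjusted p 0.00913, edgeR), and was named after its values were seen.

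Between the DMSO lines 12 of 15 tested coagulation genes were called, 7 higher and 5 lower in T-HESC, where 22.3% of all genes tested were called in each direction. Their median log2 difference was 0.21, against -0.02 over all genes. Some of the genes called, F10 and FGB among them, had enough counts for a test in only 1 of the lines. Their calls, which also enter the median, say little beyond presence in that line. F2R, the thrombin receptor PAR1, was at 1.34 CPM in HEC-1A and 95.2 CPM in T-HESC, and F10, factor X, at 1 to 2 counts per library and 33.9 CPM. ANXA5, which binds exposed phosphatidylserine, was at 180 and 1256 CPM. In the other direction, PROS1, the protein S cofactor of activated protein C, was at 112 CPM in HEC-1A and 10.3 CPM in T-HESC. F2RL1, the receptor PAR2, was at 33.9 and 1.12 CPM, and F12, factor XII, at 24.2 and 1.40 CPM. Of the abundant genes, MCFD2, a cargo receptor for coagulation factors, was called higher in T-HESC at 97.8 and 290 CPM, while its partner LMAN1 at 189.6 and 190 CPM and the vitamin K carboxylase GGCX at 49.4 and 54.5 CPM were not called.

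The list of other plasminogen genes had 21 members, and PLG, plasminogen itself, had 0 counts in all 12 libraries. With AG-205, 0 of 12 tested genes were called in HEC-1A (edgeR, 5 with an unadjusted p below 0.05, DESeq2 0) and 0 of 11 in T-HESC (edgeR, 0 with an unadjusted p below 0.05, DESeq2 0), with median log2 fold changes of 0.25 and -0.17. None of 15 was called for the difference between lines (edgeR, 0 with an unadjusted p below 0.05, DESeq2 0). In HEC-1A, S100A10, the annexin A2 partner that binds plasminogen, and SERPINB8 passed the adjusted p below the fold limit, with log2 fold changes of 0.47 and 0.61 (adjusted p 0.043 and 0.0471, edgeR). S100A10 was at 114 and 158 CPM, and SERPINB8 at 4.49 and 6.84 CPM. SERPINB2, an inhibitor of urokinase, was at 373 ± 137 CPM with DMSO and 765 ± 371 CPM with AG-205 in T-HESC (SD, n = 3; log2 fold change 1.02, adjusted p 0.961, edgeR), with overlapping libraries.

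Between the DMSO lines 11 of 13 tested plasminogen genes were called, 8 higher and 3 lower in T-HESC, against 22.3% of all genes tested in each direction. Their median log2 difference was 2.73, against -0.02 over all genes. Some of the genes called, SERPINB2 and ST14 among them, had enough counts for a test in only 1 of the lines. Their calls, which also enter the median, say little beyond presence in that line. SERPINB2 was among the genes called higher. So were MRC2, a collagen receptor that associates with the urokinase receptor, at 0.783 and 1387 CPM, and LRP1, the clearance receptor for activator and inhibitor complexes, at 42.4 and 1767 CPM. The plasminogen-binding ANXA2 was at 491 and 3290 CPM, S100A10 at 114 and 262 CPM, SERPINB8 at 4.49 and 42.5 CPM, and IGF2R, which binds plasminogen and the urokinase receptor, at 24.9 and 270 CPM. ST14, the membrane protease matriptase, which can activate urokinase, was at 275.5 CPM in HEC-1A and at most 3 counts in any T-HESC DMSO library. ENO1, enolase, was at 2801 and 1982 CPM and stayed within the fold limit.

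Genes whose level followed that of F3 or TFPI2 most closely were found by the root mean square difference of log2 CPM, each gene centred on its mean, over the 12 libraries and among 11951 genes. Nearest to F3 was CALCRL, the calcitonin receptor-like receptor, at a difference of 0.318, with 0.636 and 0.913 CPM in HEC-1A and 3.77 and 1.58 CPM in T-HESC with DMSO and AG-205. It was followed by MIR503HG, C8orf58, SYT15 and AOPEP at 0.373 to 0.390. With AG-205 in HEC-1A, F3 changed by 0.36 on the log2 scale. CALCRL changed by 0.49, MIR503HG by 0.003, C8orf58 by 0.07, SYT15 by -0.11 and AOPEP by -0.08. In T-HESC, F3 changed by -1.41. CALCRL changed there by -1.27, MIR503HG by -1.20, C8orf58 by -0.72, SYT15 by -1.20 and AOPEP by -0.58. Nearest to TFPI2 was RND3, a small GTPase, at 0.288, with 46.3 and 41.3 CPM in HEC-1A and 1101 and 2510 CPM in T-HESC. PHLDA1, PMP22, POU2F2 and CTSK followed at 0.429 to 0.560. With AG-205 in HEC-1A, TFPI2 changed by -0.29 on the log2 scale. RND3, PHLDA1 and PMP22 changed by -0.17, -0.099 and -0.23, but POU2F2 and CTSK by 0.83 and 0.51. In T-HESC, TFPI2 changed by 1.54. RND3 changed there by 1.18, PHLDA1 by 0.71, PMP22 by 0.57, POU2F2 by 0.98 and CTSK by 1.46. All of these patterns include the difference between the lines, and the 12 points share lines and libraries.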

How the data were processed

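RNA of 12 cultures was sequenced, 3 from each of 4 groups, from 3 independent culture experiments per the study's methods. The deposited values are raw counts per gene. The authors obtained them with Trimmomatic 0.38 for trimming, HISAT2 2.1.0 for alignment to GRCh38 and featureCounts (Subread 2.0.0) for counting, per the submitters' processing notes and the methods. How strand and multiple matches were treated is not given in the sources used here, and reads of a gene and its antisense partner cannot be told apart. Of the 58735 genes, 23756 had no count. Groups followed the sample labels. Within groups, chi-square per degree of freedom between libraries was 1.79 to 207, so no 2 libraries were the same.

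Each line was fitted with edgeR 4.0.16 in R 4.3.3 (TMM, filterByExpr, quasi-likelihood test, Benjamini-Hochberg adjustment over all genes tested). Genes were called at an adjusted p below 0.05 with a log2 fold change beyond 1 in either direction. The difference of the responses was the interaction in a fit of all 12 libraries, and the DMSO lines were compared over 6. The SE was derived from the F value. Levels are CPM on 1 TMM scale over the 12 libraries, so that folds from a fit differ slightly from ratios of means. A group with at most 3 counts in every library was treated as at the floor. Precision is limited by these counts, and p-values set a difference between groups against the spread between libraries. Exon lengths, positions and overlaps came from GENCODE 44, and upstream windows from RefSeq.

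The members and lists were chosen with earlier results of these data known. Genes were named by this rule: the 8 members, from each list at most 6 genes called per comparison by p and those at 50 CPM or more in a group's mean, and the 5 genes nearest to F3 and to TFPI2. Of these, 1 gene is not reported here. Alternatives were DESeq2 1.42.0, other scalings and filters, no fold limit, a replicate block, a fit of all 12 libraries and leaving out each library. The procedure was tested on simulated data. Python 3.11.15 with matplotlib 3.10.9 drew the plots.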

Additional observations from a re-analysis of the deposited data

Results flagged for a closer look

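In F3 all AG-205 libraries lay above all DMSO libraries in HEC-1A and below them in T-HESC, and the response in T-HESC minus that in HEC-1A was -1.77 on the log2 scale. In TFPI2 all AG-205 libraries lay below the DMSO libraries in HEC-1A and above them in T-HESC, with a difference of 1.85 on the log2 scale. The differences and the separation of the libraries were not tested, since both genes were selected on this response. Over all genes tested, every AG-205 library lay above every DMSO library in 16.4% in HEC-1A and in 6.22% in T-HESC. The shares for the opposite direction are not given here.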

How the results depend on the processing

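Leaving aside single libraries, 7 alternatives were run. In HEC-1A 393 genes were called, against 1643 with no fold limit and 141 in the fit of all 12 libraries, where 2 of the members were called in place of 4. Without single libraries the count in HEC-1A was 310 to 589. The response of TFPI in HEC-1A, near 0, was -0.0042 with DESeq2 and -0.0861 to 0.0936 without single libraries (below 0 without DMSO replicate 1, DMSO replicate 2 or AG-205 replicate 3). In T-HESC the 11 called genes became 116 with DESeq2, 181 with no filter on low counts, 160 in the fit of all 12 libraries, and 0 to 72 without single libraries, 72 being without AG-205 replicate 1, and 0 without any one of DMSO replicates 1, 2 and 3 or AG-205 replicate 2. In T-HESC, PLAT ranged from -0.49 to 0.16 and PLAU from -0.0698 to 0.61 on the log2 scale without single libraries. For the difference between lines, the 28 called genes became 86 with DESeq2, 141 with no filter, and 4 to 80 without single libraries (80 without T-HESC AG-205 replicate 1, 59 without T-HESC AG-205 replicate 3 and at most 13 without any other). The number of members called for it was 1 with DESeq2, 1 with no filter and 0 to 1 without single libraries, and THBD ranged from -0.32 to 0.73, below 0 without HEC-1A AG-205 replicate 3, T-HESC AG-205 replicate 2 or T-HESC DMSO replicate 3. Between the DMSO lines 6593 genes were called, and 10664 with no fold limit. The cause of these changes was not tested, other than that a fold limit removes calls by construction.

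With the replicate number as a replicate block, 363 genes were called in HEC-1A, 9 in T-HESC, 0 for the difference and 6594 between the DMSO lines, and no call of a member changed. The deviations of same-numbered AG-205 and DMSO libraries correlated at -0.08, 0.23 and 0.00 in HEC-1A and at 0.22, -0.53 and -0.04 in T-HESC, and not every library correlated best with its own number, so the numbers were not taken as pairs. Depth limits THBD in T-HESC and SERPINE2 in HEC-1A, where a change was not detectable.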
